A study of Mus musculus with 19 samples.

Results

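Chemokine ligand genes of myeloid cells, 7 in number, were followed across the libraries of the series: Ccl3, Ccl4, Ccl6, Ccl9, Cxcl2, Cxcl10 and Cxcl16. They were the rows of the count table whose gene symbol equalled one of these names, 7 genes of 38887, and all 7 passed the expression filter that left 12943 genes for testing. Chemokines are small secreted proteins that bind receptors on leukocytes and draw these cells along a gradient. They are named CC or CXC by the spacing of their first cysteines, and myeloid cells release many of them after contact with microbes or cytokines. In the spleen, neutrophils and monocytes are both sources and targets of these signals.

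RNA was measured by sequencing of 50 bp single-end reads in 19 libraries of mouse spleen cells that the labels call myeloid-derived suppressor cells (MDSC), myeloid cells that restrain T cell responses. PMN-MDSC, the neutrophil-like form, were taken as CD11b+ Ly6G+ cells with intermediate Ly6C, and M-MDSC, the monocyte-like form, as CD11b+ Ly6G- cells with high Ly6C. Beads and a cell sort were used for the isolation. Mice were either newborn, at an age of 7 days, or adult, at 6 to 8 weeks. Adults gave 6 PMN-MDSC and 3 M-MDSC libraries, and newborns gave 5 of each kind. No genotype, treatment or strain difference between the groups is named in the labels, and nothing there says that replicates came from separate mice, so a p-value here sets a difference against the spread of the libraries alone, part of which may be technical.

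The libraries came in 2 batches by their labels, with total counts of 827744 to 2965896 in the 10 libraries of batch 1 and 14026193 to 45135933 in the 9 libraries of batch 2. Levels are given as CPM, the count relative to a library size scaled by the TMM method. A count of 0 allowed up to 3 counts, which was 0.990 to 3.29 CPM in a batch 1 library and 0.0601 to 0.197 CPM in a batch 2 library, counting error only. In PMN-MDSC, 5 libraries of batch 1 (adult 1, 2 and 3, newborn 2 and 3) each resembled 1 batch 2 library of their group (adult 32, 33 and 34, newborn 37 and 38): chi-square per degree of freedom was 2.38 to 6.29 in these pairs and 6.89 to 19.7 in the 10 other pairs across batches. They may share a source, and results without the 5 batch 1 partners are given below. Ly6g, which encodes the sort marker, was at 12.1 to 24.7 CPM in adult PMN-MDSC, 176 to 245 in newborn PMN-MDSC and at most 1.85 in M-MDSC. The summed level of 12 neutrophil markers was 10462 to 11153 CPM in adult PMN-MDSC and 101772 to 114218 in newborn PMN-MDSC, against 669 to 1163 in adult M-MDSC and 3187 to 14596 in newborn M-MDSC. The part of this list in the M-MDSC age differences below was not tested. Monocyte markers, 12 as well, summed to 2379 to 3050 CPM in PMN-MDSC of adults and 15182 to 20158 in those of newborns, close to the 17622 to 27995 of the M-MDSC libraries. Kdm5d, a Y-linked gene, was at 0 in each of 9 adult libraries and above 0 in each of 10 newborn ones, so the mix of sexes and age cannot be told apart.

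Other cell types were measured by fixed marker lists. The summed level of 12 B cell markers in PMN-MDSC was 3206 to 5109 CPM for adults and 722 to 889.7 for newborns, and in M-MDSC 712 to 1807 and 202 to 329. All 10 dendritic cell markers had counts in each group, with sums in PMN-MDSC of 267 to 472 CPM for adults and 46.3 to 54.8 for newborns, and in M-MDSC of 200.2 to 251 and 17.5 to 101. Basophil and mast cell markers, 10 in number, had sums of 327 to 473 CPM in PMN-MDSC of newborns and 428 to 1089 in those of adults, where Tpsb2 was at 0. For M-MDSC the sums were 15.6 to 19.2 in adults, where Mcpt8, Prss34, Cpa3, Fcer1a, Ms4a2 and Tpsb2 were at 0, and 56.5 to 102 in newborns, where Cpa3, Fcer1a, Cma1 and Tpsb2 were at 0. NK cell markers, 8 in number, ranged from 10.96 to 35.3 CPM in PMN-MDSC of adults, 3.03 to 7.66 in those of newborns, 34.0 to 58.9 in M-MDSC of adults and 0 to 7.00 in those of newborns, with Klra8 at 0 in both newborn groups. Sums of 12 T cell markers in PMN-MDSC were 91.0 to 183 CPM for adults and 48.0 to 76.3 for newborns, and in M-MDSC 165 to 392 and 9.90 to 43.0. Sums of 12 red pulp macrophage markers in PMN-MDSC were 2399 to 5020 CPM for adults and 2526 to 3127 for newborns, and in M-MDSC 832 to 1119 and 540.0 to 612. The sums for B, dendritic, NK and T cells were thus higher in adult libraries of both cell types without overlap, which is the direction of most ligand changes below, whereas 3 other lists were higher in newborn PMN-MDSC. Eosinophil markers, 10 in number, summed to 71.9 to 146 CPM in PMN-MDSC of adults and 386 to 976 in those of newborns, and in M-MDSC to 15.9 to 53.9 and 69.6 to 248. In adults Epx, Ear1 and Ear6 were at 0 in both cell types, and Prg3 in M-MDSC. Erythroid markers, 11 of 12 in the table, summed in PMN-MDSC to 155 to 295 CPM for adults and 1508 to 2643 for newborns, and in M-MDSC to 64.2 to 282, with Klf1 at 0, and 40.9 to 1457. Megakaryocyte and platelet markers, 10 in number, summed in PMN-MDSC to 10.8 to 24.8 CPM and 26.3 to 38.0, and in M-MDSC to 7.47 to 15.3 and 0 to 51.5. There Gp1ba, Gp1bb, Gp9, Gp6 and Pf4 were at 0 in adults and Gp6 in newborns. The part of any of these lists in the ligand changes was not tested.

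Of the ligand genes, 4 lie together on chromosome 11 of GRCm38 (GENCODE release M21): Ccl9 at 83572919 to 83578636, Ccl6 at 83587882 to 83593087 and Ccl3 at 83647844 to 83649355, all on the minus strand, and Ccl4 at 83662584 to 83664683 on the plus strand. They fill a stretch of 91.8 kb, with 13.2 kb between Ccl3 and Ccl4 and 9.2 kb between Ccl9 and Ccl6. Cxcl16 lies apart on the same chromosome at 70453983 to 70459984 on the minus strand. Cxcl2 (90903871 to 90905938, plus strand) and Cxcl10 (92346638 to 92348889, minus strand) lie on chromosome 5. All 7 are protein-coding, with 3 exons in Ccl3 and Ccl4, 4 in Ccl6, Ccl9, Cxcl2 and Cxcl10, and 5 in Cxcl16. On the opposite strand, E230016K23Rik overlaps Ccl6 and held 5633 counts over the 19 libraries, Art3 overlaps Cxcl10 with 63 counts and Zmynd15 overlaps Cxcl16 with 72. No source used here says that strand was counted, and reads from a stretch in both transcripts then cannot be told apart. Overlap was judged by gene span and not by exon, so how many reads this could concern was not tested.

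Per kilobase of transcript, the 7 ligands together stood highest in adult cells. Their summed level was 679 ± 270.3 CPM per kb in adult PMN-MDSC (SD, n = 6), 135 ± 26.4 in newborn PMN-MDSC (n = 5), 597 ± 239 in adult M-MDSC (n = 3) and 273 ± 53.8 in newborn M-MDSC (n = 5). In bulk samples, fewer producing cells and less RNA per cell cannot be told apart. The ranges did not overlap between the ages in either cell type: the lowest adult library was at 357 CPM per kb in PMN-MDSC and 366 in M-MDSC, and the highest newborn library at 153 and 331. The mixture differed too. Cxcl2 made 49.4% of the sum in adult PMN-MDSC on average and Ccl6 39.5%, whereas Ccl6 made 71.9% and Cxcl2 22.2% in newborn PMN-MDSC. In newborn M-MDSC, Ccl6 made 59.7%, Ccl3 19.6% and Ccl9 16.5%, and Cxcl2 only 1.89%. In adult M-MDSC the shares of Cxcl2 ran from 2.19% to 35.9% among 3 libraries.

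**Figure D1:**
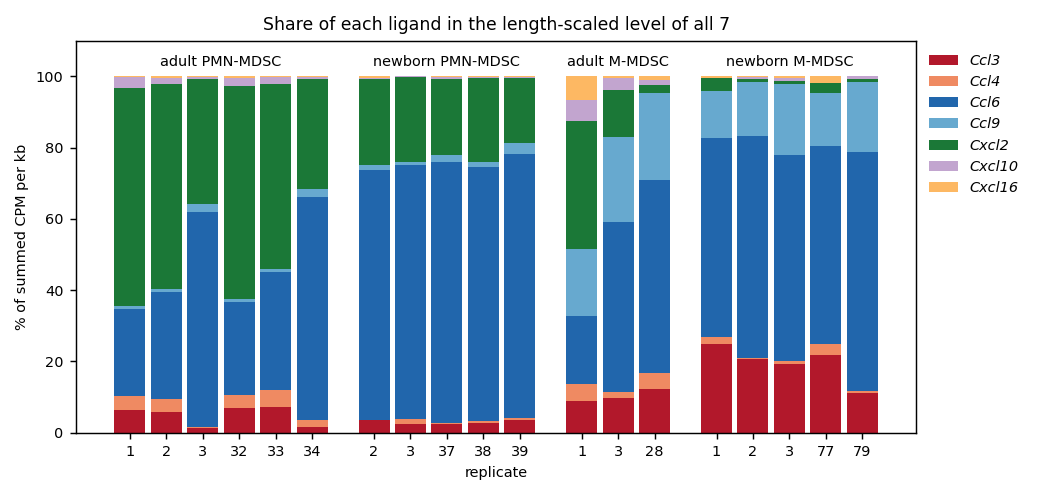
Share of each ligand in the summed CPM per kb of the 7 ligands (y axis, percent), for each library (x axis, replicate number within group). Cxcl2 (dark green) takes 31.0% to 61.3% in adult PMN-MDSC, 18.3% to 24.2% in newborn PMN-MDSC and 0.866% to 3.91% in newborn M-MDSC, while Ccl9 (light blue) takes at least 13.1% in each M-MDSC library and at most 3.12% in each PMN-MDSC library.

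Cxcl2, the main neutrophil attractant among these genes, acts through the receptor Cxcr2. Its promoter is shown with that of Cxcl10 because both genes were lower in newborns of both cell types, and with that of Ccl6, which fell least in PMN-MDSC. Ccl9 was also lower in both cell types, and its matches are given below without its sequence. A link between matches and the size of a change was not tested. Windows of 250 bases before the RefSeq start were read from RefSeq on GRCm38.p6, which held 5 of the 7 members (Ccl3, Ccl6, Ccl9, Cxcl2 and Cxcl10). For Cxcl2 the last 28 bases, which lie inside the annotated gene, were left out. Capitals mark matches to the NF-kB consensus of 10 letters, to the interferon response motif (a pair of GAAA blocks with 2 bases of any kind between them), to TGANTCA of AP-1 and to TTGCNNAA of C/EBP, on both strands, where overlapping matches run together.
Cxcl2, chr5:90903649-90903870, plus strand: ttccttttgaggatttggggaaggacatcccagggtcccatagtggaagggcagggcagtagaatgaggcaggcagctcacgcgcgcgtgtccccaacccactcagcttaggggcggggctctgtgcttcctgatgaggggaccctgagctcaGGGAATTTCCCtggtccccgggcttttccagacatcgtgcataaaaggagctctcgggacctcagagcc
Cxcl10, chr5:92348890-92349139, minus strand: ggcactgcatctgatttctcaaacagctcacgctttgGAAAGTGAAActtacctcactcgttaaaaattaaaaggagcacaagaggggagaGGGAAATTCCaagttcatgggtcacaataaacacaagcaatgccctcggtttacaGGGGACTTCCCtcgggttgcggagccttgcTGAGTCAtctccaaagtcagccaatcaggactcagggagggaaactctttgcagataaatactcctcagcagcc
Ccl6, chr11:83593088-83593337, minus strand: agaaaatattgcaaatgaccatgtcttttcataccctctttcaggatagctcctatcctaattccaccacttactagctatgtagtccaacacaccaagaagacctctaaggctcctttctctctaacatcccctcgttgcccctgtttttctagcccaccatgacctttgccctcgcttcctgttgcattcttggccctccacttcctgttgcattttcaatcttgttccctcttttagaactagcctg
In Cxcl2 the capitals are 1 stretch that matches the NF-kB consensus on both strands, GGGAATTTCC at 97 to 88 bases before the RefSeq start. In Cxcl10 they are an interferon response match (GAAAGTGAAA, 213 to 204 before the start), a first NF-kB match (GGGAAATTCC, 159 to 150), a pair of overlapping NF-kB matches (104 to 94) and an AP-1 match (TGAGTCA, 74 to 68). The windows of Ccl6 and Ccl3 held none of the 4 motifs, and that of Ccl9 held an NF-kB match on the minus strand (GGAAAGCCCC, 35 to 26) and an AP-1 match (TGAATCA, 53 to 47). Of 32851 RefSeq windows of this length, 7.3% held the NF-kB consensus, 3.0% the interferon motif, 6.7% the AP-1 motif and 9.6% the C/EBP motif. The motifs were chosen with these sequences in view, and a match is a description of letters, not of binding.

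Cxcl2 RNA was highest in adult PMN-MDSC, with a lowest library of 123 CPM, a median of 439 and a highest of 657. Newborn PMN-MDSC libraries 2, 3, 37, 38 and 39 were at 38.3, 37.2, 35.8, 40.0 and 18.1 CPM, all below each adult library. By the quasi-likelihood test of edgeR, Cxcl2 was 11.4-fold lower in newborn PMN-MDSC (log2 fold change -3.51 ± 0.65 SE, adjusted p = 0.000203). Adult M-MDSC libraries 1, 3 and 28 were at 336, 54.0 and 14.2 CPM, a wide spread, and newborn M-MDSC libraries 1, 2, 3, 77 and 79 at 13.5, 3.21, 2.78, 6.52 and 2.54 CPM. All newborn M-MDSC libraries were below the lowest adult one, and the log2 fold change was -4.29 ± 0.79 (edgeR, adjusted p = 0.000466). Without adult M-MDSC replicate 1 it was -2.52, still called (adjusted p = 0.0103), and within batch 2, with 1 adult M-MDSC library, -1.62 (adjusted p = 0.204). In the order of group means (adult PMN-MDSC, adult M-MDSC, newborn PMN-MDSC, newborn M-MDSC), only the last step was called, and adult M-MDSC did not differ from either neighbour beyond its spread.

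**Figure D2:**
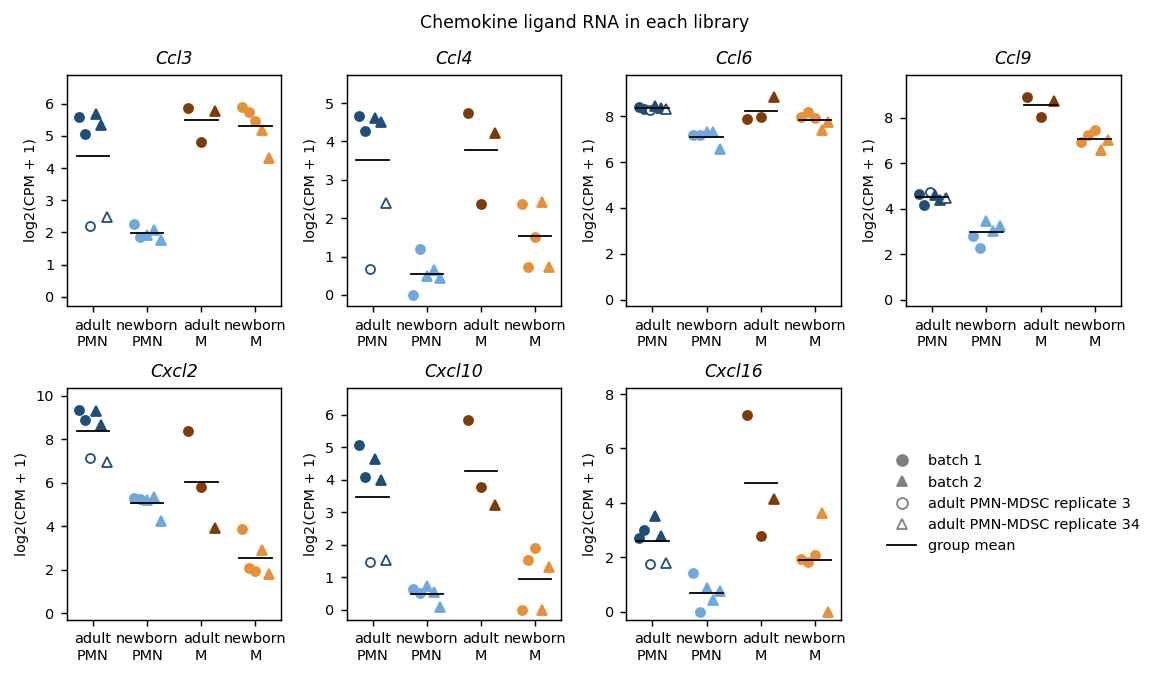
Level of each ligand in each library as log2(CPM + 1) (y axis) by group (x axis), with circles for batch 1, triangles for batch 2, open symbols for adult PMN-MDSC replicates 3 and 34, and lines at group means of the plotted values. Open symbols lie well below the other 4 adult PMN-MDSC libraries for Ccl3, Ccl4, Cxcl2, Cxcl10 and Cxcl16, and Ccl9 separates M-MDSC (95.0 CPM or more) from PMN-MDSC (25.8 CPM or less).

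Cxcl10, an interferon-induced ligand of Cxcr3 that attracts T and NK cells, was at 1.80 CPM in the lowest, 15.4 in the median and 32.9 in the highest adult PMN-MDSC library. In newborn PMN-MDSC replicates 2, 3, 37, 38 and 39 it was at 0.547, 0.432, 0.667, 0.453 and 0.0580 CPM, 31 counts in all, below each adult library. The log2 fold change was -4.93 ± 1.06 (edgeR, adjusted p = 0.000781), with -4.89 within batch 1 and -4.99 within batch 2. Adult M-MDSC 1, 3 and 28 were at 55.9, 12.9 and 8.29 CPM, whereas newborn M-MDSC 1, 2, 3, 77 and 79 were at 0, 1.92, 2.78, 0 and 1.49 CPM. The M-MDSC groups did not overlap, with a log2 fold change of -4.27 ± 1.10 (edgeR, adjusted p = 0.00648). This call was lost without adult M-MDSC replicate 1 (-3.25, adjusted p = 0.0509), within batch 2 (-3.34, 0.226), with limma-voom (-4.29, 0.0930) and with only the M-MDSC groups in the fit (-4.14, 0.0688). Between the cell types Cxcl10 was not called at either age, so in its order of means only the step from adult PMN-MDSC to newborn M-MDSC was called (edgeR, adjusted p = 0.00363).

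Cxcl16, a membrane-bound ligand of Cxcr6 that also serves as a scavenger receptor, had the lowest mean level of the 7 in adult PMN-MDSC, both as CPM and as CPM per kb. Its levels there were 2.40 CPM in the lowest library, 5.64 in the median and 10.4 in the highest, and 1.64, 0, 0.833, 0.340 and 0.696 CPM in newborn PMN-MDSC 2, 3, 37, 38 and 39. Newborn libraries were all below adult ones (log2 fold change -3.12 ± 1.07, edgeR, adjusted p = 0.0224). The call was lost in batch 1 alone (-2.70, adjusted p = 0.207), in batch 2 alone (-3.21, 0.144), without the batch 1 partners (-3.22, 0.132) and without adult replicate 32 (-2.74, 0.0534), newborn replicate 3 (-2.89, 0.0532) or newborn replicate 38 (-2.91, 0.0602). In adult M-MDSC 1, 3 and 28, Cxcl16 was at 149, 5.81 and 16.8 CPM, so that replicate 1 set the group mean. Newborn M-MDSC 1, 2, 3, 77 and 79 were at 2.79, 2.57, 3.24, 11.3 and 0 CPM, overlapping the adult range. The log2 fold change in M-MDSC was -3.78 ± 1.12 (edgeR, adjusted p = 0.0157) and -1.44 without adult M-MDSC replicate 1 (adjusted p = 0.379). The call was lost in 5 of 33 alternatives, among them within batch 2 (-1.59, adjusted p = 0.601), without the batch 1 PMN-MDSC partners (-3.81, 0.0691) and with only the M-MDSC groups in the fit (-3.76, 0.163). In the order of means (adult M-MDSC, adult PMN-MDSC, newborn M-MDSC, newborn PMN-MDSC), only the first step was called.

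Ccl3 and Ccl4 are close paralogs, and both are early products of activated myeloid cells. Ccl3 binds the receptor Ccr1. Ccl3 was at 3.60 CPM in the lowest adult PMN-MDSC library, 35.8 in the median and 50.0 in the highest, and at 3.83, 2.59, 2.80, 3.23 and 2.38 CPM in newborn PMN-MDSC 2, 3, 37, 38 and 39. The groups overlapped because adult replicate 3 lay below newborn replicate 2, and the other 5 adult libraries were above all newborn ones. The change was 9.93-fold (log2 fold change -3.31 ± 0.59, edgeR, adjusted p = 0.000139). In M-MDSC the change did not pass the test. Adult M-MDSC 1, 3 and 28 were at 57.6, 27.0 and 54.0 CPM and newborn M-MDSC 1, 2, 3, 77 and 79 at 59.0, 52.6, 42.6, 35.5 and 18.9 CPM. The ranges overlapped throughout, with a log2 fold change of -0.19 ± 0.61 (edgeR, adjusted p = 0.854). In the order of means, adult M-MDSC, newborn M-MDSC and adult PMN-MDSC did not differ beyond their spread, and newborn PMN-MDSC stood below them.

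Ccl4 was at 0.600 CPM in the lowest adult PMN-MDSC library, 19.8 in the median and 24.1 in the highest. In newborn PMN-MDSC 2, 3, 37, 38 and 39 it was at 0, 1.30, 0.400, 0.567 and 0.348 CPM, 31 counts in all. The lowest adult value, replicate 3, rested on 1 count and fell within the newborn range. The log2 fold change was -4.96 ± 0.90 (edgeR, adjusted p = 0.000162). Unlike Ccl3, Ccl4 was also lower in newborn M-MDSC: adult M-MDSC 1, 3 and 28 were at 25.8, 4.15 and 17.5 CPM and newborn M-MDSC 1, 2, 3, 77 and 79 at 4.18, 0.641, 1.85, 4.31 and 0.644 CPM. The log2 fold change was -2.73 ± 0.86 (edgeR, adjusted p = 0.0223), with overlap between adult replicate 3 and the 2 highest newborn libraries. That call was lost without adult M-MDSC replicate 1 (-2.15, adjusted p = 0.113) or replicate 28 (-2.65, 0.0510), in each batch alone (-2.65, adjusted p = 0.0974, and -2.81, 0.102), with limma-voom (-2.45, 0.358) and with only the M-MDSC groups in the fit (-2.79, 0.0934). In the order of means, adult M-MDSC and adult PMN-MDSC did not differ beyond their spread, and the steps down to newborn M-MDSC (edgeR, adjusted p = 0.00721) and on to newborn PMN-MDSC (0.0461) were called.

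The ratio of counts of the 2 neighbours within a library needs no scaling between libraries. The log2 ratio of Ccl3 to Ccl4 (0.5 added to each count) was 0.99 ± 0.66 in adult PMN-MDSC (SD, n = 6) and 2.54 ± 1.08 in newborn PMN-MDSC (n = 5), a difference of 1.55 (exact two-sided permutation test, p = 0.0195, Benjamini-Hochberg p over 4 tests = 0.0390). In M-MDSC it was 1.81 ± 0.76 in adults and 4.35 ± 1.05 in newborns, a difference of 2.55 (exact permutation p = 0.0357, adjusted 0.0476). Every newborn M-MDSC library, from 3.03 to 5.78, was above the highest adult one, at 2.64, whereas in PMN-MDSC newborn replicate 3, at 0.89, lay among the adults. The difference was 1.10 and 1.95 within batches 1 and 2 in PMN-MDSC and 2.73 and 2.31 in M-MDSC, where too few libraries remained for a test. The permutation takes the PMN-MDSC libraries as independent. Without the 5 batch 1 partners 3 against 3 remained, too few to reach the threshold, and the PMN-MDSC difference was 1.95, with no test. In newborn PMN-MDSC the ratio rests on 0 to 12 counts of Ccl4 per library. In newborn M-MDSC it rests on 1 to 92, with 1 count behind the highest ratio, 5.78.

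**Figure D3:**
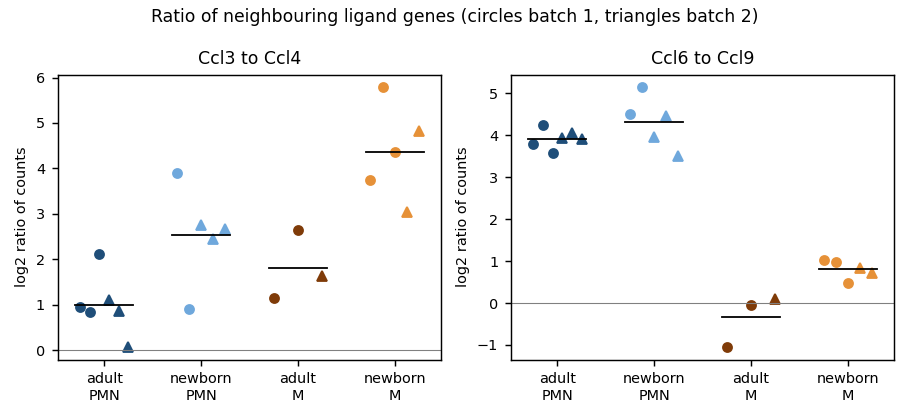
Log2 ratio of the counts of Ccl3 to Ccl4 (left) and of Ccl6 to Ccl9 (right) on the y axis in each library by group (x axis), with 0.5 added to each count, circles for batch 1, triangles for batch 2 and lines at group means. The means of the left panel are 0.99, 2.54, 1.81 and 4.35 from left to right, and those of the right panel 3.92, 4.32, -0.34 and 0.81.

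Ccl6 and Ccl9 belong to a group of mouse CC chemokines that bind Ccr1 and are made constitutively by many myeloid cells. Ccl6 was the steadiest ligand in adult PMN-MDSC, at 310.1 CPM in the lowest library, 329 in the median and 355 in the highest. Newborn PMN-MDSC 2, 3, 37, 38 and 39 were at 144, 145, 159, 157 and 95.2 CPM, all lower, and the change was 2.37-fold (log2 fold change -1.24 ± 0.19, edgeR, adjusted p = 1.86e-05). Adult M-MDSC 1, 3 and 28 were at 233, 252 and 455 CPM and newborn M-MDSC 1, 2, 3, 77 and 79 at 249.8, 296, 240.4, 169 and 213 CPM. These ranges overlapped, and the log2 fold change of -0.43 ± 0.22 was not called (edgeR, adjusted p = 0.148). It was 0.10 within batch 1 (adjusted p = 0.734) and -1.19 within batch 2 (adjusted p = 0.0233), where adult M-MDSC had replicate 28 alone and was assumed to vary like the other groups, and -0.62 without adult M-MDSC replicate 1 (adjusted p = 0.0493). In its order of means, adult PMN-MDSC, adult M-MDSC and newborn M-MDSC did not differ from their neighbours beyond the spread, and newborn PMN-MDSC stood lowest. Adult PMN-MDSC and newborn M-MDSC, at the ends of that stretch, did differ (log2 fold change -0.50 ± 0.18, edgeR, adjusted p = 0.0264).

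Ccl9 marked the monocyte-like cells at both ages. It was at 16.8 CPM in the lowest, 22.2 in the median and 25.8 in the highest adult PMN-MDSC library, and at 6.02, 3.89, 10.1, 7.08 and 8.35 CPM in newborn PMN-MDSC 2, 3, 37, 38 and 39. Adult M-MDSC 1, 3 and 28 were at 479, 261 and 429 CPM, and newborn M-MDSC 1, 2, 3, 77 and 79 at 122, 151, 173, 95.0 and 129 CPM. No 2 groups overlapped, and each step of the order (adult M-MDSC, newborn M-MDSC, adult PMN-MDSC, newborn PMN-MDSC) was called. The age effects were close in size, with a log2 fold change of -1.53 ± 0.23 in PMN-MDSC (edgeR, adjusted p = 1.67e-05) and -1.54 ± 0.24 in M-MDSC (edgeR, adjusted p = 7.77e-05). The log2 ratio of Ccl6 to Ccl9 was 3.92 ± 0.23 in adult and 4.32 ± 0.62 in newborn PMN-MDSC, a difference of 0.40 that was not called (exact permutation p = 0.175). In M-MDSC it was -0.34 ± 0.61 in adults (SD, n = 3) and 0.81 ± 0.22 in newborns (n = 5), a difference of 1.14 (exact permutation p = 0.0179, the smallest that 3 against 5 libraries can give, adjusted 0.0390), and all newborn libraries were above all adult ones. Within batches 1 and 2 it was 1.37 and 0.69.

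In newborn against adult PMN-MDSC 7 of 7 were called lower, where 20.5% of all genes tested were, and the median log2 fold change was -3.31 against -0.05 over all genes. In 5 of 7, Ccl6, Ccl9, Cxcl2, Cxcl10 and Cxcl16, every newborn library was below every adult library, which held for 23.0% of all genes. Without the 5 batch 1 partners 6 of 7 were called lower, and likewise within each batch alone, Cxcl16 being the exception each time. Of all genes tested in these fits, 1209 of 15926 were called lower without the partners, 1544 of 11979 within batch 1 and 2127 of 18160 within batch 2. In newborn against adult M-MDSC 5 of 7 were called lower, where 14.3% of all genes were, with a median log2 fold change of -2.73 against 0.01. Here 3 ligands (Ccl9, Cxcl2 and Cxcl10) did not overlap, which held downward for 10.4% of all genes. Without adult M-MDSC replicate 1, 3 ligands were called lower (Ccl6, Ccl9 and Cxcl2), where 1629 of 15891 genes were. Batch 2 held 1 adult M-MDSC library, replicate 28, so its calls are not counted here. Other scalings moved the median of all genes to at most -0.29 in PMN-MDSC, with upper-quartile scaling, where 2756 genes were called higher and 3552 lower in place of 3514 and 2657, and all 7 ligands stayed lower.

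**Figure D4:**
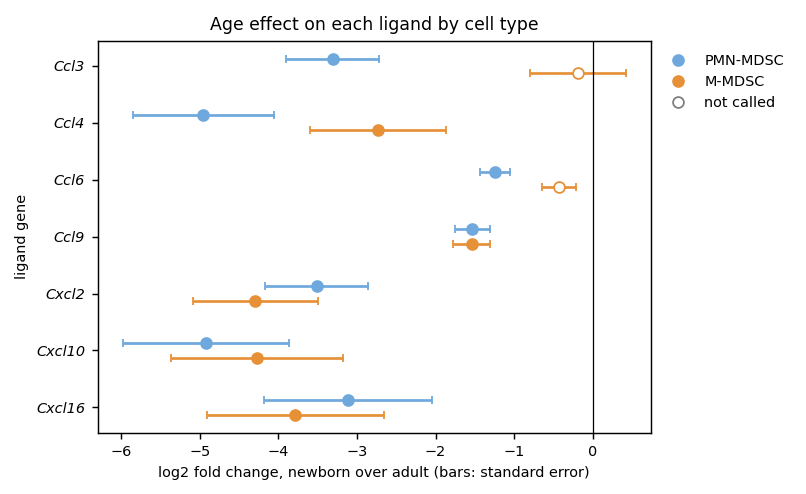
Log2 fold change of newborn over adult (x axis) for each ligand (y axis) in PMN-MDSC (blue) and M-MDSC (orange), with bars of 1 standard error and open circles where the adjusted p was not under 0.05. Ccl3 is at -3.31 in PMN-MDSC and -0.19 in M-MDSC, the widest gap among the 7, and Ccl9 is at -1.53 and -1.54.

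The difference of the 2 age effects was itself tested. It passed for 1 of 7 ligands, Ccl3, where 18.1% of all genes passed: the fall in PMN-MDSC exceeded that in M-MDSC by 3.12 ± 0.86 on the log2 scale (edgeR, adjusted p = 0.0160). This call was lost in batch 1 alone (3.36, adjusted p = 0.101), in batch 2 alone (2.45, 0.210), without the batch 1 partners (3.16, 0.05003), with limma-voom (3.31, 0.0813) and without adult M-MDSC replicate 3 (2.80, 0.0502), always with the same sign. For Ccl6 the difference was 0.82 ± 0.29 (edgeR, adjusted p = 0.0554), and it was called in 8 of 32 alternatives, among them DESeq2 size factors (0.90, adjusted p = 0.0354), limma-voom (1.15, 0.00669) and the fits without adult M-MDSC replicate 28 (1.22, 0.00249) or newborn M-MDSC replicate 77 (0.95, 0.0222). For Ccl4 it was 2.22 ± 1.21 (edgeR, adjusted p = 0.225), and for Ccl9 -0.01 ± 0.37 (adjusted p = 0.995). Cxcl2 (-0.78 ± 0.97), Cxcl10 (0.65 ± 1.42) and Cxcl16 (-0.67 ± 1.52) did not pass, and their standard errors leave room for differences of either sign.

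Between the cell types, Ccl9 stood out at both ages: it was 18.1-fold higher in M-MDSC of adults (log2 fold change 4.18 ± 0.24, edgeR, adjusted p = 7.62e-10) and 18.0-fold higher in those of newborns (4.17 ± 0.25, adjusted p = 4.08e-10). In adults, 2 of 7 ligands were called higher in M-MDSC, where 16.7% of all genes were, and none of 7 lower, where 12.5% were. The other one was Cxcl16 (3.35 ± 1.06, edgeR, adjusted p = 0.0234), a call lost in 7 of 33 alternatives, among them those without adult M-MDSC replicate 1 (0.87, adjusted p = 0.562) or adult PMN-MDSC replicate 3 (3.12, 0.0530). Cxcl2 in adults was at -1.92 ± 0.78 (edgeR, adjusted p = 0.0713) and was called lower in M-MDSC without adult M-MDSC replicate 1 (-3.78, adjusted p = 0.00154) or adult PMN-MDSC replicate 3 (-2.25, 0.0377). In newborns, 4 of 7 were called higher in M-MDSC, where 18.7% of all genes were: Ccl9, Ccl3 (13.5-fold, adjusted p = 8.91e-05), Ccl6 (1.67-fold, 0.00447) and Ccl4 (4.85-fold, 0.0461), all by edgeR. Cxcl2 was the 1 ligand of 7 called lower, where 23.4% of all genes were, by 6.50-fold (edgeR, adjusted p = 0.00492). The Ccl4 call was lost in 20 of 32 alternatives, with adjusted p up to 0.474, and the Ccl6 call within batch 2 (0.37, adjusted p = 0.257) and without the batch 1 partners (0.69, 0.102). Cxcl10 (1.11 ± 1.08) and Cxcl16 (2.68 ± 1.09) were not called in newborns (edgeR, adjusted p = 0.434 and 0.0557). Cxcl16 was called in 6 alternatives, among them those without adult M-MDSC replicate 3 (2.61, 0.0475) or 28 (2.80, 0.0405) or newborn M-MDSC replicate 79 (3.12, 0.0101). With 1 library left out at a time it ranged from 0.57 to 3.12, with edgeR adjusted p up to 0.748. Newborn M-MDSC replicate 77 held 240 of the 257 Cxcl16 counts of its group.

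Adult PMN-MDSC replicates 3 and 34, a pair that resembled each other across batches, stood apart for 5 of the ligands and not for the other 2. The pair was picked after the ligand values were seen. The share of all genes for which it stood apart was not computed, so the 5 ligands cannot be set against it. Cxcl2 was at 139 and 123 CPM in this pair and at 403 to 657 in the other 4 adult libraries, and Ccl3 at 3.60 and 4.52 against 32.4 to 50.0. Ccl4 was at 0.600 and 4.29 CPM against 18.2 to 24.1, Cxcl10 at 1.80 and 1.90 against 15.0 to 32.9, and Cxcl16 at 2.40 and 2.46 against 5.48 to 10.4. Ccl6, at 310.1 and 322 CPM, and Ccl9, at 25.8 and 21.3, were near the other libraries (324 to 355 and 16.8 to 24.1). The same pair was lowest for lists of NF-kB, AP-1 and interferon genes: the mean log2 CPM of 22 NF-kB subunits and targets was 6.44 and 6.46 against 7.13 to 7.63, that of 18 AP-1 and early response genes 7.05 and 7.08 against 8.15 to 8.35, and that of 24 interferon genes 5.39 and 5.41 against 6.61 to 6.92. Basophil and mast cell markers were also lowest there, at a sum of 430.1 and 428 CPM against 853 to 1089, and B cell markers highest, at 5052 and 5109 CPM against 3206 to 3662. Dendritic cell markers (267 and 282 CPM against 345 to 472), red pulp macrophage markers (2399 and 2509 against 2762 to 5020) and megakaryocyte and platelet markers (13.2 and 10.8 against 14.1 to 24.8) were lowest there too. The part of these cells in the ligand levels was not tested. Leaving out both libraries kept all 7 ligands called lower in newborn PMN-MDSC, with log2 fold changes from -5.45 for Ccl4 to -1.28 for Ccl6. In that fit 2261 of 12729 genes were called lower. In M-MDSC, adult replicate 1 was high for each of the same lists. The NF-kB list was at 8.07 against 6.16 and 6.30 in the other 2 adult libraries. The AP-1 list was at 8.55 against 6.98 and 7.23, and the interferon list at 7.02 against 5.72 and 5.73. Adult M-MDSC replicate 1 stood far above both other libraries for Cxcl2, Cxcl10 and Cxcl16, at 336, 55.9 and 149 CPM. Ccl3, at 57.6 CPM against 54.0 in replicate 28, and Ccl4, at 25.8 against 17.5, were less far apart.

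**Figure D5:**
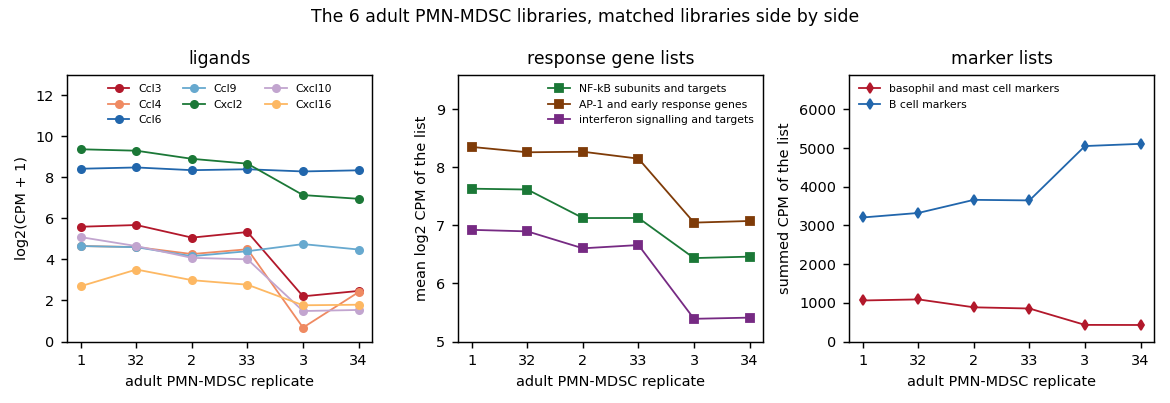
The 6 adult PMN-MDSC libraries on the x axis, libraries that resembled each other side by side: log2(CPM + 1) of each ligand (left), mean log2 CPM of 3 gene lists (middle) and summed CPM of 2 marker lists (right). Replicates 3 and 34 are well below the others for 5 ligands, and lowest for the 3 gene lists and for basophil and mast cell markers, and highest for B cell markers, while Ccl6 and Ccl9 stay nearly level.

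Other chemokine ligands were scarce. Of 33 listed, 32 were in the table, 5 had no count in any library and 6 passed the expression filter: Ccl2, Ccl5, Ccl27a, Cxcl1, Cxcl3 and Ppbp. Cxcl1 and Cxcl3, neutrophil attractants that share Cxcr2 with Cxcl2, were called lower in newborns of both cell types. In PMN-MDSC their log2 fold changes were -5.05 ± 1.58 for Cxcl1 (edgeR, adjusted p = 0.0133) and -3.09 ± 1.17 for Cxcl3 (adjusted p = 0.0412). Counts in newborn PMN-MDSC were 5 for Cxcl1 and 33 for Cxcl3, against 269 and 428 in adults. Genes this scarce in newborns pass the expression filter through adult libraries. A lower level was thus close to the only call open to them, and it adds no separate support to that of Cxcl2. In newborn M-MDSC, Cxcl1 had 1 count and Cxcl3 none over 5 libraries, against 43 and 6 counts in 3 adult libraries, where 1 library held all counts of Cxcl3. Cxcl1 had counts in 2 of the 3 adult libraries, at 7.77 ± 12.7 CPM (SD, n = 3), a spread wider than its mean. Ccl5, a T cell and NK cell product too, was called lower in newborn M-MDSC, with 4 counts against 156 in adults, and not in PMN-MDSC (-1.94 ± 0.89, edgeR, adjusted p = 0.0810). Ccl2, Ccl27a and Ppbp were not called in either age comparison.

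Receptors of the ligands moved in both directions. Cxcr6 and Ackr1 did not pass the expression filter. In newborn PMN-MDSC, Cxcr3 was lower (log2 fold change -2.61 ± 0.55, edgeR, adjusted p = 0.000631). Ccr1, the receptor for Ccl3, Ccl6 and Ccl9, was at 233 CPM in newborn and 297 in adult PMN-MDSC and was not called, nor were Cxcr2 (465 and 377 CPM), Ccr3 and Ackr2. In newborn M-MDSC, Ccr1 rose by 2.41 ± 0.36 on the log2 scale (edgeR, adjusted p = 6.82e-05), from 22.4 to 116 CPM, and Cxcr2 by 2.48 ± 0.61 (adjusted p = 0.00469), from 5.25 to 19.8 CPM. Ccr3 was lower there (-4.56 ± 0.76, edgeR, adjusted p = 0.000181), and Cxcr3 and Ackr2 were not called. The 12 neutrophil markers, which include Cxcr2, summed to 3187 to 14596 CPM in newborn M-MDSC against 669 to 1163 in adult M-MDSC, and their part in the Ccr1 and Cxcr2 values was not tested. Of the proteases that act on chemokines, Dpp4, which trims the ends of Cxcl10 and others, was lower in newborns in PMN-MDSC (-2.73 ± 0.35, edgeR, adjusted p = 3.32e-06) and M-MDSC (-2.97 ± 0.41, 2.87e-05). Adam10, which sheds Cxcl16 from the cell surface, was higher in newborn PMN-MDSC (0.65 ± 0.23, edgeR, adjusted p = 0.0280). In M-MDSC its change was similar and not called (0.64 ± 0.29, edgeR, adjusted p = 0.107). Adam17 was lower in newborn M-MDSC (-0.87 ± 0.21, edgeR, adjusted p = 0.00390) and not called in PMN-MDSC (-0.43 ± 0.18, 0.0512).

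Genes of the NF-kB, AP-1 and interferon lists were mostly lower in newborns as well, and their part in the ligand changes was not tested. Over all genes tested, 20.5% were called lower and 27.1% higher in newborn PMN-MDSC, and 14.3% and 15.9% in newborn M-MDSC. Of 22 NF-kB subunits and targets, 16 were lower and 1 higher (Nfkb1) in newborn PMN-MDSC, with a median log2 fold change of -1.76 against -0.05 over all genes, and 16 were lower and none higher in newborn M-MDSC (median -1.80 against 0.01). The smallest adjusted p belonged to Nfkb2, Icam1 and Traf1 in PMN-MDSC, with log2 fold changes of -1.9998, -2.15 and -3.58, and to Traf1, Nfkb2 and Cd40 in M-MDSC, with -4.16, -1.66 and -1.75. Of 18 AP-1 and early response genes, 15 were lower and 1 higher (Ier2) in newborn PMN-MDSC (median -1.61), and 13 lower and none higher in newborn M-MDSC (median -1.53). Egr3, Atf3 and Dusp1 led in PMN-MDSC, with -2.94, -4.62 and -1.86, and Egr3, Dusp1 and Junb in M-MDSC, with -2.49, -1.61 and -1.39. Of 24 interferon signalling genes and targets, 22 were lower in newborn PMN-MDSC (median -2.31) and 23 in newborn M-MDSC (median -3.04), with none higher in either. Oasl2, Oasl1 and Gbp2 led in PMN-MDSC, with -4.95, -6.76 and -2.82, and Oasl2, Oas2 and Usp18 in M-MDSC, with -4.06, -3.39 and -3.39. Ccl3 and Ccl6 were the ligands not called in newborn M-MDSC.

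Proteins that bind AU-rich elements and shorten or lengthen the life of cytokine mRNA were mixed. Of 8 tested, 4 were lower in newborns in each cell type, 1 was higher in PMN-MDSC and 2 were higher in M-MDSC, where the shares over all genes were 20.5% and 14.3% lower and 27.1% and 15.9% higher. Zfp36l1, a decay factor, changed by -3.14 ± 0.23 on the log2 scale in PMN-MDSC (edgeR, adjusted p = 2.63e-09) and -2.56 ± 0.26 in M-MDSC (7.03e-07). Zfp36l2 fell by 1.72 in PMN-MDSC and Zfp36 by 1.66 in M-MDSC, and Khsrp, also a decay factor, rose by 0.73 and 1.05.

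Over the 4 groups, the ligand patterns most alike among themselves were those of Ccl4 and Cxcl16 and of Ccl4 and Cxcl10. The measure was the root mean square difference of group levels, each gene centred on its own mean (log2 CPM), and it was 0.60 for the first pair and 0.65 for the second, against 1.204 for the neighbours Ccl3 and Ccl4 and 1.98 for Ccl6 and Ccl9. Among all genes of at least 5 CPM, Cacna1d (0.0877), Aldh1b1 and Irf5 were closest to Ccl3, and Rrad (0.144), Slfn5 and Trim30c to Ccl4. Flcn (0.0548), Eef1g and Cyp51 were closest to Ccl6, and Sestd1 (0.226), Slc35e4 and Cx3cr1 to Ccl9. Crim1 (0.204), Kcnk5 and Ptpn14 were closest to Cxcl2, Traf1 (0.345), Prr5l and Cd209a to Cxcl10, and Ctsw (0.282), Klf9 and Hspa1b to Cxcl16. With 4 points a pattern, such likeness describes these groups only.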

How the data were processed

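RNA-seq libraries of 19 sorted cell samples were analysed from 1 table of estimated counts per gene, which the authors deposited as whole numbers without normalization. Per the submitters' processing notes, RSEM 1.2.3 and the build mm10 were used, and DESeq2 is named without a role. The aligner and annotation release were not given in the sources used here. Groups, replicates and batches were taken from the labels. In R 4.3.3, edgeR 4.0.16 fitted its quasi-likelihood test to all 19 libraries with group and batch terms, TMM scaling and its expression filter by group, leaving 14 residual degrees of freedom. P-values were adjusted by Benjamini-Hochberg over all 12943 tested genes and called under 0.05. Standard errors come from the fold change and F statistic. Ratios were compared by exact two-sided permutation tests (Python 3.11.15). On simulated counts for newborn against adult PMN-MDSC over 12943 genes, 45.9% of 109 genes changed by 1 on the log2 scale and 82.4% of 91 changed by 2 were recovered, with 6 false calls. The changed genes were drawn only from those above a minimum mean level. Simulated libraries were independent and had no batch effect, so recovery and false calls may differ for scarce genes and for libraries that share a source.

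Length scaling used the principal transcript of each gene. Alternatives, whose effect the closing section gives, covered scaling, filters, DESeq2 1.42.0, limma 3.58.1 voom, batches, left-out libraries and a replicate block. The members and gene lists were chosen with earlier results of these data known. Named are all members, the tested other ligands, receptors and proteases, the 3 genes of each other list with the smallest adjusted p, the 3 genes nearest each member in pattern, and, chosen after their values were seen, Nfkb1 and Ier2. Marker genes and Kdm5d serve as checks. One item of the lists is not reported here.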

Additional observations from a re-analysis of the deposited data

Results flagged for a closer look

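Samples standing apart were looked for in 21 combinations of ligand and group with 5 or 6 libraries by Dixon's test, and 3 were found. By chance the test picks about 1 in 20 where libraries are independent. Resembling PMN-MDSC libraries may not be independent, so that rate may not hold for PMN-MDSC. Newborn PMN-MDSC replicate 39 was the lowest of 5 for Ccl6, at 95.2 CPM against 144 to 159, and for Cxcl2, at 18.1 CPM against 35.8 to 40.0. It is the newborn PMN-MDSC library of batch 2 without a resembling partner in batch 1. Newborn M-MDSC replicate 77 was the highest of 5 for Cxcl16, at 11.3 CPM against 0 to 3.24. In addition, the age effect on Ccl3 differed between the cell types by 3.12 on the log2 scale in the test of the difference itself (edgeR, adjusted p = 0.0160).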

How the results depend on the processing

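Over 32 or 33 alternatives to each ligand's fold change, counted over all 7 contrasts, 1469 values kept their direction and their side of the threshold, 64 kept the direction and lost the call, 25 gained it and 49 changed sign. All 7 ligands kept a lower level in newborn PMN-MDSC under every alternative run. The sign changes, given below as log2 differences, fell on values that were not called, and their causes were not tested, as were those of the changed counts. A batch taken alone, and the fit without the batch 1 partners, had fewer libraries by construction. Batch 2 held 1 adult M-MDSC library, replicate 28, which was assumed to vary like the other groups. The calls of the fit to batch 2 alone are therefore listed only as a record of that run. Its ligand counts are not set against the share of all genes, and no conclusion is drawn from them.

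With batch 1 alone, Ccl3 and Ccl6 were at 0.28 and 0.10 in newborn against adult M-MDSC and the difference of the age effects of Ccl9 at 0.84. Genes called over the whole table were then 3760 for age in PMN-MDSC (6171 with all libraries), 408 for the difference of the age effects (2344), 1368 between the adult cell types (3772) and 3231 between the newborn ones (5437). With batch 2 alone, 2 ligands were called lower in newborn M-MDSC, 0 passed the difference of the age effects (4254 genes in all), 1 was higher and 1 lower between the adult cell types (6457 genes in all), and 2 were higher in newborn M-MDSC than PMN-MDSC. The difference of the age effects was then 1.93 for Cxcl2 and 1.63 for Cxcl16, the difference of the adult cell types -0.0017 for Ccl4, 0.33 for Ccl6 and -0.82 for Cxcl10, Cxcl2 in adult M-MDSC against newborn PMN-MDSC -1.31, and Ccl3 in newborn M-MDSC against adult PMN-MDSC -0.26. Without the batch 1 partners, age in PMN-MDSC gave 3740 genes, the difference of the age effects 968 genes and 0 ligands, and the adult cell types 2407 genes and 1 ligand higher, with Ccl4 at -0.0030 and Cxcl10 at -0.28. Ligands called higher in newborn M-MDSC than newborn PMN-MDSC were then 2, where 1233 of 15926 genes were. Without both adult PMN-MDSC 3 and 34, an alternative chosen after seeing the data, 1 ligand was higher and 1 lower between the adult cell types (1907 and 1305 of 12729 genes). Ccl4 was at -0.46 and Cxcl10 at -0.11 there, and Ccl3 was at -0.0940 in newborn M-MDSC against adult PMN-MDSC.

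With DESeq2's Wald test, DESeq2 size factors, upper-quartile scaling and the fit with no batch term, 2 ligands in place of 1 passed the difference of the age effects, where Ccl9 was at 0.0516, 0.0765 and 0.17 in the first 3. Between the adult cell types Ccl4 was at -0.0258 and -0.0198 with the first 2, and DESeq2's Wald test called 1 ligand lower. Genes higher and lower in the difference of the age effects were 856 and 1488 with TMM, 1157 and 1134 with upper-quartile scaling and 1441 and 1638 with the Wald test. For age in PMN-MDSC the Wald test gave 3169 higher and 3680 lower, and for the adult cell types 2206 and 2583 (TMM 2158 and 1614). With limma-voom, 3 ligands and 2315 genes were called in newborn against adult M-MDSC, where Ccl3 was at 0.11, 1 ligand was higher among 1820 genes between the adult cell types, where Ccl4 was at -0.64, and the difference of the age effects of Ccl9 was 0.0210. With only the groups compared in the fit, 9548 genes were called for age in PMN-MDSC, and 2 ligands among 1267 genes for age in M-MDSC.

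Replicate numbers are shared by groups of batch 1, but same-numbered libraries did not all deviate together: the correlation of their deviations was -0.05 to 0.18 over 12 pairs and -0.18 to 0.08 over 25 pairs of unlike number. With the replicate block, 7 and 4 ligands were called lower in newborn PMN-MDSC and M-MDSC, and 2566 and 1700 of 12943 genes. Cxcl16 was at -2.96 in M-MDSC (edgeR, adjusted p = 0.0781). Between the adult cell types the block gave 1 ligand higher and 1 lower, with Ccl4 at -0.11, and the difference of the age effects was 0.0227 for Ccl9 and 0.0813 for Cxcl16.

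Leaving out 1 library at a time gave 3 to 5 ligands called lower in newborn M-MDSC, where 1629 to 2211 of 12767 to 15891 tested genes were. Of the ligands, 0 to 2 passed the difference of the age effects, where 2021 to 2905 genes did. Between the adult cell types 1 to 2 ligands were higher and 0 to 1 lower, where 1334 to 2435 and 916 to 2846 genes were. Called genes there were 2250 to 5036 in all, the lowest without adult M-MDSC replicate 28. Ccl3 ranged from -0.47 to 0.0511 in newborn against adult M-MDSC. The difference of the age effects ranged from -0.25 to 0.16 for Ccl9, -1.48 to 1.00435 for Cxcl2, -0.0748 to 1.72 for Cxcl10 and -2.19 to 1.71 for Cxcl16. The difference of the adult cell types ranged from -0.61 to 0.45 for Ccl4, -0.53 to 0.0341 for Ccl6 and -0.61 to 0.95 for Cxcl10, and Cxcl2 in adult M-MDSC against newborn PMN-MDSC from -0.26 to 2.35. The age difference in the log2 ratio of Ccl3 to Ccl4 ranged from 1.205 to 1.958 in PMN-MDSC, losing its call without newborn replicate 2, and from 2.19 to 2.96 in M-MDSC, losing it without adult replicate 1 or newborn replicates 1, 2, 3 or 79. That of Ccl6 to Ccl9 in PMN-MDSC ranged from 0.19 to 0.60, called without newborn replicate 39. Depth limits Cxcl10, Ccl4 and Cxcl16 in newborn cells, where each batch 1 library of PMN-MDSC held 0 to 3 counts of each.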
